A study of Homo sapiens with 12 samples.

Results

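Cholesterol and fatty acid synthesis are set by the sterol regulatory element-binding proteins, which are made as membrane-bound precursors. SCAP escorts these precursors out of the endoplasmic reticulum when sterols are low, whereas INSIG1 holds SCAP back when sterols are plentiful. SREBF1 mainly drives fatty acid genes and SREBF2 cholesterol genes, including the enzymes HMGCS1, ACACA and FASN, and in liver cells this circuit sets the output of lipid. To examine where METTL16, eIF3a and eIF3b were found on these transcripts, 7 genes were taken by name (SREBF1, SREBF2, SCAP, INSIG1, HMGCS1, ACACA and FASN), and every peak carrying a name of these was read from 6 peak lists. Of the 7 genes, 5 had a peak in at least 1 list, out of 10830 gene names in the lists, and they carried 115 of 101848 peaks. INSIG1 and ACACA had no peak in any list.

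In RIP-seq (RNA immunoprecipitation with sequencing) a protein is pulled down and the RNA that comes with it is sequenced beside input RNA. The cells were HepG2, an established human liver cancer line, stably infected to express Flag-tagged METTL16 (an RNA methyltransferase), Flag-tagged eIF3a or Flag-tagged eIF3b (subunits of the translation initiation factor eIF3), and were cross-linked with ultraviolet light. The series holds 12 samples, 6 RIP and 6 input, with 2 RIP replicates for each of the 3 proteins, which the methods of the study call biological replicates. Per the labels, METTL16 and eIF3b were pulled down with a Flag antibody and eIF3a with an antibody against eIF3a, whereas the list names say flag for all 6, so protein and antibody cannot be told apart for eIF3a if the labels are right. All tagged proteins were overexpressed, and no RIP with a control antibody or from untagged cells was used here. The lists held 13199 and 13136 peaks for METTL16 replicates 1 and 2, 21733 and 12921 for eIF3a, and 20832 and 20027 for eIF3b. Of 10 hepatocyte and HepG2 marker genes, 9 had a peak in at least 1 list and 3 in all 6, among them SERPINA1 and HNF4A. Others were sparse, with FGB in 3 lists, AFP and TF in 2, ALB in 1 and TTR in none. Of the markers of other cells, the blood genes HBB and PTPRC had peaks in 4 lists and 1 list, the fibroblast gene VIM in 4 and COL1A1 in none. The presence of a peak therefore did not separate liver markers from those of other cells.

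Coordinates are on GRCh38 and counted from 1, and exons, codons and distances follow the GENCODE canonical transcript of each gene, in which the stop codon counts with the 3′ UTR. The following coding stretches are shown because they are the longest within 1 exon that lay under a peak in the largest number of lists for their gene. Capitals mark the bases that lay under a peak in all 6 lists for SCAP, SREBF2 and FASN, and in 4 lists for SREBF1, and lower case marks flanking coding bases. The SCAP stretch was in exon 20 (chr3:47414827-47414993, minus strand), with codons 1057 to 1097 in capitals. The SREBF2 stretch was in exon 19 (chr22:41905440-41905633, plus strand), with codons 1069 to 1123 in capitals. The FASN stretch is the first 240 bases of a run of 390 bases in exon 23 (chr17:82085632-82085871, minus strand), codons 1245 to 1324. The SREBF1 stretch was in exon 7 (chr17:17817696-17817766, minus strand), with codons 455 to 465 in capitals.
SCAP: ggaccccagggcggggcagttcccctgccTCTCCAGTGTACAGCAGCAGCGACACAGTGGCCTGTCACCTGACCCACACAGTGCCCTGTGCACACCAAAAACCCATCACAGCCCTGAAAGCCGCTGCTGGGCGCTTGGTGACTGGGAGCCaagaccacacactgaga
SREBF2: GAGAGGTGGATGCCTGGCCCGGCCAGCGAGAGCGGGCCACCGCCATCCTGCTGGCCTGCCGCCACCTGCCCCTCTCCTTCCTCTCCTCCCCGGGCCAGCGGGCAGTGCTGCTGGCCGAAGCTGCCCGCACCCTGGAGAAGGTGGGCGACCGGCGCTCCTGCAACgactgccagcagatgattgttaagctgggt
FASN: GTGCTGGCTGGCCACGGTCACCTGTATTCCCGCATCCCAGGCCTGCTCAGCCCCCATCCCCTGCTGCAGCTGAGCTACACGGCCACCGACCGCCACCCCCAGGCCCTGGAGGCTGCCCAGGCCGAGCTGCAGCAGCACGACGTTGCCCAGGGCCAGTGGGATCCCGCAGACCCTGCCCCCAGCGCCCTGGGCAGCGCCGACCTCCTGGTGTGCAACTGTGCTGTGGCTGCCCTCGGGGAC
SREBF1: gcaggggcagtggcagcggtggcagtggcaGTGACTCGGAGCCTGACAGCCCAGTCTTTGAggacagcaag
GC content was 61.2% in the SCAP capitals, 73.8% in the SREBF2 capitals, 71.7% in the FASN capitals and 58.1% in the SREBF1 capitals. All 4 stretches are coding sequence.

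**Figure D1:**
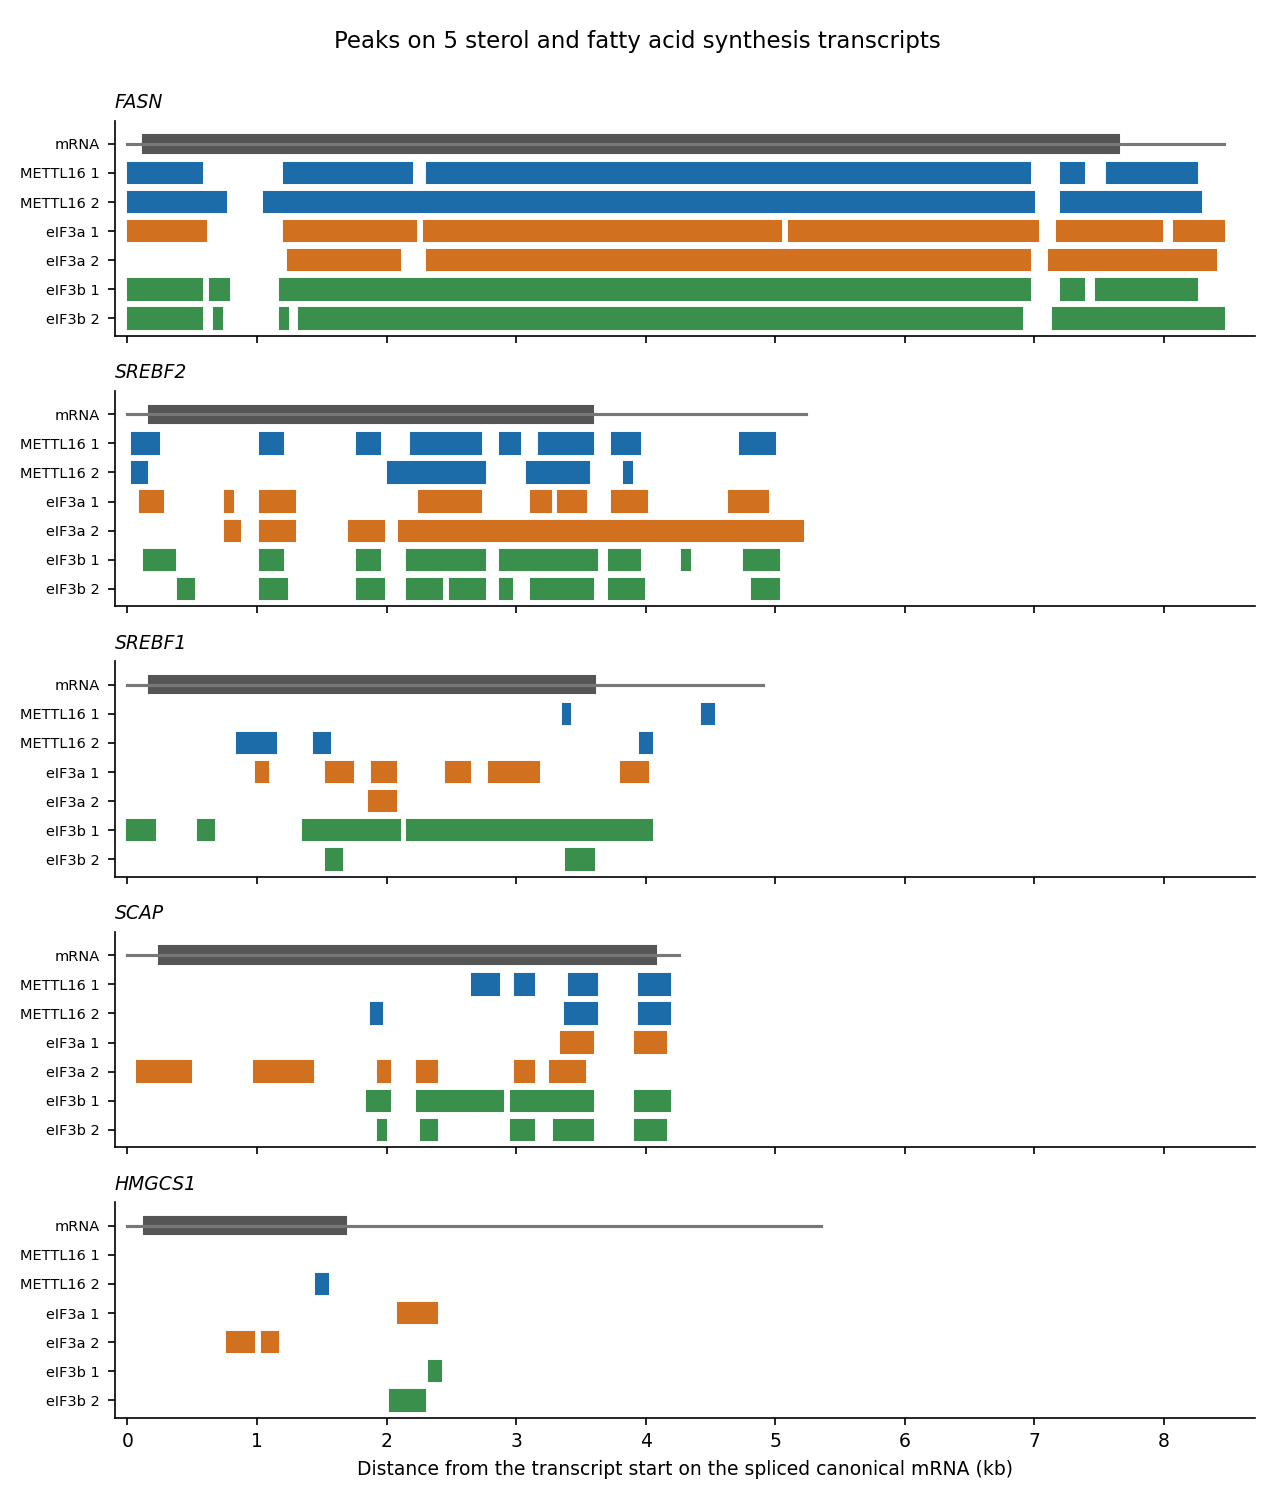
Peaks along the spliced canonical mRNA of 5 genes in each of the 6 lists, with distance from the transcript start in kb on the horizontal axis. The dark bar is the coding sequence, the thin line the whole mRNA, and each coloured block a peak (blue METTL16, orange eIF3a, green eIF3b). FASN was covered over 80.5% to 91.8% of its length, with the 5′ end bare in eIF3a replicate 2, while HMGCS1 had 1 or 2 narrow peaks in 5 lists and none in METTL16 replicate 1.

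SREBF1 and SREBF2, the transcription factors of the circuit, both had peaks in all 6 lists, but the peaks on SREBF1 fell in different places from list to list. SREBF1 (chr17:17810399-17837002, minus strand, 19 exons) had 18 peaks in all, and METTL16 replicates 1 and 2 shared 0 of its bases. Peaks covered 3.10% and 10.4% of the SREBF1 mRNA in METTL16 replicates 1 and 2, 25.8% and 4.31% in eIF3a, and 60.7% and 6.75% in eIF3b. The spread between replicates of eIF3a and of eIF3b was larger than the distance of either mean from the METTL16 mean. The gene RAI1 overlaps SREBF1 on the opposite strand and had peaks in all 6 lists under its own name, and the libraries were made with a stranded kit, but how strand was used in the calling was not stated. METTL16 replicate 1 had a peak of 61 bases across exons 18 and 19 (chr17:17812816-17813392, codons 1064 to 1084, fold enrichment of RIP over input 6.95) and a peak of 91 bases in the 3′ UTR. METTL16 replicate 2 instead had 300 bases in exons 3 to 5 (codons 225 to 325, 6.35-fold), 121 bases in exon 7 and 91 bases in the 3′ UTR. The widest SREBF1 peak was in eIF3b replicate 1, with 1888 bases in exons 10 to 19, and that list was also the one with a peak over the SREBF1 start codon. At most 4 lists met on the same base of SREBF1, over 31 bases, and 31.3% of the mRNA lay under no peak in any list.

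SREBF2 (chr22:41833105-41907306, plus strand, 19 exons) had 41 peaks, the most of the 7 genes, and its peaks met at fixed places toward the 3′ end of the coding sequence. METTL16 peaks covered 41.3% and 26.9% of its mRNA in replicates 1 and 2, eIF3a peaks 36.7% and 72.0%, and eIF3b peaks 48.2% and 40.7%. All 3 proteins overlapped in this share. In all 6 lists a peak lay over codons 695 to 754, 774 to 854, 1004 to 1034 and 1053 to 1123 and over 61 bases of the 3′ UTR, 783 bases or 15.0% of the mRNA. eIF3a replicate 2 differed in shape from the other lists, with a single peak of 3112 bases over exons 10 to 19 (chr22:41880887-41907278, 6.28-fold) that ran through the stop codon into the 3′ UTR. A peak over the start codon was present in METTL16 replicate 1 (3.86-fold), eIF3a replicate 1 (2.28-fold) and eIF3b replicate 1 (1.72-fold). METTL16 replicate 2 had a peak of 120 bases in the 5′ UTR that ended before the start codon (3.34-fold). Of 1110 SREBF2 bases under peaks in both METTL16 lists, 60 lay under no eIF3a or eIF3b peak.

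SCAP, the escort of the precursors (chr3:47413681-47477126, minus strand, 23 exons), had 23 peaks over the 6 lists, and eIF3a replicate 2 stood apart from the other 5. In those 5 lists a peak of 241 or 271 bases spanned the stop codon in exon 23, with a fold enrichment of 3.40 and 3.04 in METTL16 replicates 1 and 2, 2.35 in eIF3a replicate 1, and 3.99 and 2.10 in eIF3b replicates 1 and 2. eIF3a replicate 2 had no peak there. Instead its strongest SCAP peak held 871 bases between exon 1 and exon 10 (chr3:47422500-47475869) and spanned the start codon. It covered mRNA bases 73 to 493 and 979 to 1428 and left out those between. Its fold enrichment was 9.06 and its deposited log10 p-value -243. No other list covered any base of the SCAP 5′ UTR. METTL16 peaks covered 19.1% and 13.5% of the SCAP mRNA in replicates 1 and 2, eIF3a peaks 11.3% and 36.1%, and eIF3b peaks 41.0% and 21.3%. Both eIF3b lists were above both METTL16 lists, and the eIF3a replicates fell on either side of METTL16. The 121 bases printed in capitals above were the whole overlap of the 6 lists. Between the eIF3a replicates the Jaccard index of SCAP peak bases (shared bases over all bases) was 0.0986, against 0.483 between the METTL16 replicates and 0.519 between the eIF3b replicates.

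INSIG1, which retains SCAP in the endoplasmic reticulum (chr7:155297776-155310235, plus strand, 6 exons), had no peak in any list, by name, by older symbol or by position on its strand. Among its nearest protein-coding genes, RBM33 had peaks in 6 lists and PAXIP1 in 4, whereas EN2, CNPY1 and HTR5A had none. The depth behind the lists is unknown, so a missing peak does not show that the transcript was unbound, and whether INSIG1 was expressed in these cells was not tested.

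HMGCS1, which makes the precursor of mevalonate in the cholesterol pathway (chr5:43287470-43313512, minus strand, 11 exons), had 6 narrow peaks of 91 to 300 bases. METTL16 replicate 1 had no HMGCS1 peak. METTL16 replicate 2 had a peak of 91 coding bases in exon 10 (chr5:43292525-43292615, codons 444 to 474, 1.62-fold). eIF3a replicate 1 had 300 bases of the 3′ UTR (chr5:43290434-43290733, 2.48-fold), while eIF3a replicate 2 had 2 coding peaks in exons 5 to 7 (1.69-fold and 1.47-fold). eIF3b replicates 1 and 2 had 91 and 270 bases of the 3′ UTR (1.65-fold and 3.21-fold). METTL16 peaks covered 0 and 1.70% of the HMGCS1 mRNA, eIF3a peaks 5.61% and 6.19%, and eIF3b peaks 1.70% and 5.05%. Within each protein the 2 replicates shared no HMGCS1 base. At most 2 lists met on the same base, over 271 bases of the 3′ UTR. The presence pattern of HMGCS1, in every list except METTL16 replicate 1, was shared by 265 genes, or 2.45% of the 10830.

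ACACA, the acetyl-CoA carboxylase that makes malonyl-CoA for fatty acid synthesis (chr17:37084992-37406836, minus strand, 56 exons), had no peak in any list by name, older symbol or position on its strand. Its mRNA is the longest of the 7, at 10013 bases. The neighbouring genes AATF and SYNRG had peaks in all 6 lists, and C17orf78 and TADA2A had none. By contrast its paralog ACACB had peaks in both eIF3a and both eIF3b lists and in neither METTL16 list, with a highest fold enrichment of 7.09 to 17.6. How reads shared by the paralogs were assigned was not stated.

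FASN, the fatty acid synthase that turns malonyl-CoA into palmitate (chr17:82078338-82098294, minus strand, 43 exons), was covered over most of its length in all 6 lists. METTL16 peaks covered 83.7% and 91.8% of its mRNA in replicates 1 and 2, eIF3a peaks 88.7% and 80.5%, and eIF3b peaks 88.3% and 89.7%. The means were 87.7% ± 5.75 for METTL16, 84.6% ± 5.79 for eIF3a and 89.0% ± 1.00 for eIF3b (SD, n = 2). The means differed by less than the SD of METTL16 or eIF3a, but by more than that of eIF3b. Among all genes with a peak in a list, the share of FASN exon bases under peaks ranked at percentile 99.3 to 99.9, and the median gene had 5.77% to 8.16%. FASN carried 27 peaks with 61 to 5939 bases, and the widest, in METTL16 replicate 2, was assembled from 33 exonic blocks (chr17:82080545-82092550). A total of 6095 bases, or 72.0% of the mRNA, lay under a peak in all 6 lists, and 4.29% lay under none. A peak spanned the stop codon in 6 lists and the start codon in 5. eIF3a replicate 2 was the list with no peak before codon 372.

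**Figure D2:**
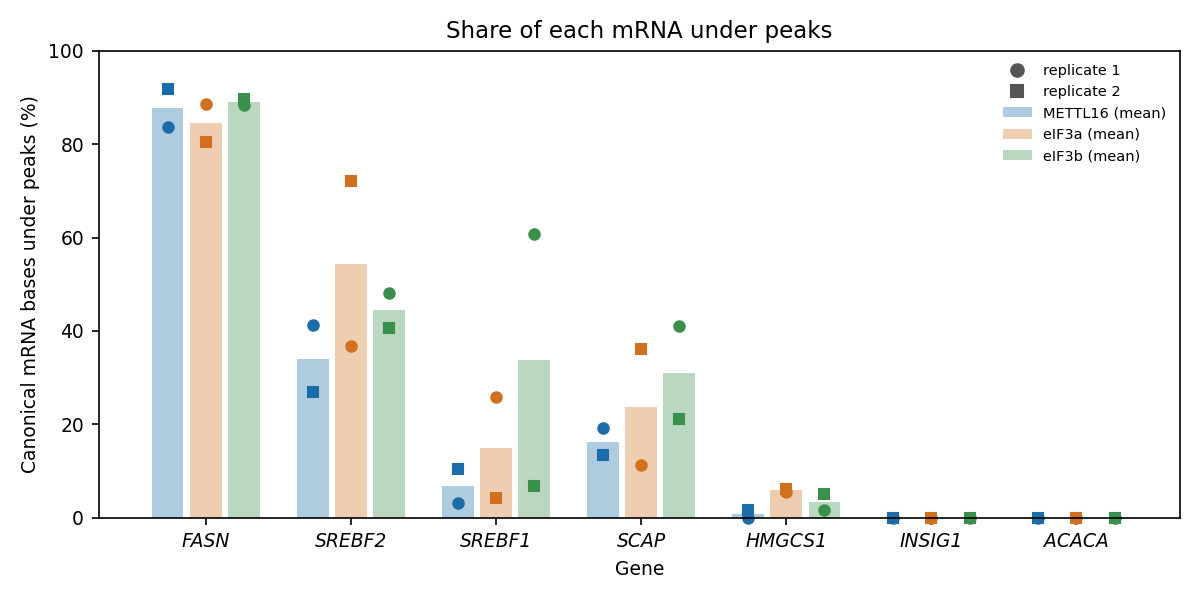
Share of canonical mRNA bases under peaks for the 7 genes, in percent, with circles for replicate 1, squares for replicate 2 and bars for the mean of the 2 replicates of each protein. FASN lay between 80.5% and 91.8% in every list, and INSIG1 and ACACA were at 0 in every list.

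The covered share of the mRNA counts bases under any peak and does not measure the strength of enrichment. By this share FASN ranked above SREBF2 in every list, with lowest and highest values of 80.5% and 91.8% against 26.9% and 72.0%. SREBF2 was in turn above SCAP (11.3% to 41.0%) in every list, most closely in eIF3b replicate 1 at 48.2% against 41.0%. Their ranges over the lists overlapped. The order of SCAP and SREBF1 (3.10% to 60.7%), and of SREBF1 and HMGCS1 (0 to 6.19%), changed between lists. By the smallest p-value of its peaks, FASN ranked 148 and 85 among the genes of METTL16 replicates 1 and 2, 181 and 423 in eIF3a, and 172 and 241 in eIF3b, of 5226 to 8166 genes per list. SREBF1 ranked 2445 to 5621 and HMGCS1 3303 to 7555 where it was present. SCAP ranked 133 in eIF3a replicate 2 and 1845 to 2914 in the other lists.

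For presence, 4 of the 7 genes had a peak in both METTL16 replicates (SREBF1, SREBF2, SCAP and FASN), and 42.6% of all genes named in any list did so, or 22.9% of 20020 protein-coding genes. For eIF3a 5 of 7 genes had a peak in both replicates, against 42.4% and 22.8%, and for eIF3b 5 of 7, against 60% and 32.2%. The additional gene in both cases was HMGCS1. These calls did not require shared bases. The replicates shared no base on HMGCS1 for eIF3a or for eIF3b, nor on SREBF1 for METTL16. With only the 5000 peaks of smallest p-value per list, SREBF1 lost its call for all 3 proteins and HMGCS1 for eIF3a and eIF3b. The 4 METTL16 genes had a peak in all 6 lists, which 25.2% of genes with any peak and 13.6% of protein-coding genes did. A peak in no list, as for INSIG1 and ACACA, was found for 46.4% of protein-coding genes. With 7 genes chosen by name these counts are a description and were not tested.

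The same held for differences in covered bases between proteins. Both eIF3a lists were above both METTL16 lists for 1 of 5 genes (HMGCS1), against 23.4% of all genes compared. Both eIF3b lists were above both METTL16 lists for 1 of 5 (SCAP), against 39%. Both eIF3a lists were above both eIF3b lists for 1 of 5 (HMGCS1), against 6.48%. None of the 5 separated in the opposite directions, for which the shares of all genes were 13.7% for METTL16 above eIF3a, 5.26% for METTL16 above eIF3b, and 22.8% for eIF3b above eIF3a. For a single gene, 2 lists against 2 cannot give an exact two-sided permutation p below 0.33.

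FASN reached a highest fold enrichment of 5.27 and 7.58 with METTL16 (replicates 1 and 2), of 3.67 and 3.02 with eIF3a, and of 5.52 and 3.85 with eIF3b. The METTL16 mean of 6.43 ± 1.63 was above the eIF3a mean of 3.35 ± 0.46 with no overlap, and overlapped the eIF3b mean of 4.69 ± 1.18 (SD, n = 2). SREBF1 reached 6.95 and 6.35 in METTL16, 4.55 and 2.62 in eIF3a, and 4.86 and 5.29 in eIF3b, so both METTL16 lists were above the other 4. The METTL16 values came from peaks of 61 and 300 bases at different places, with no base shared between the replicates. By its smallest p-value, SREBF1 ranked 4422 of 5829 genes in METTL16 replicate 1. Since the median gene differed between lists, from 3.62 to 4.64, each value was also placed as a percentile among all genes of its list. FASN was at percentiles 61.1 and 72.7 in METTL16 replicates 1 and 2, 45.8 and 40.5 in eIF3a, and 57.4 and 47.9 in eIF3b, and SREBF1 was at 70.8 and 67.3, 56.5 and 31.9, and 52.0 and 62.6 in the same order. On that scale both genes were higher in both METTL16 lists than in both eIF3a and both eIF3b lists, 2 of 4 genes in each comparison, a scale chosen after the folds had been seen. Among all genes with peaks in the 4 lists compared, METTL16 was above eIF3a for 32.1% and above eIF3b for 21.9%, and below them for 11.5% and 18.5%. SREBF2 reached 3.86 and 3.34 in METTL16, 2.45 and 6.28 in eIF3a, and 5.03 and 2.26 in eIF3b, and the proteins overlapped. SCAP reached 3.40 and 3.04 in METTL16, 2.35 and 9.06 in eIF3a, and 5.35 and 2.45 in eIF3b, which also overlapped.

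**Figure D3:**
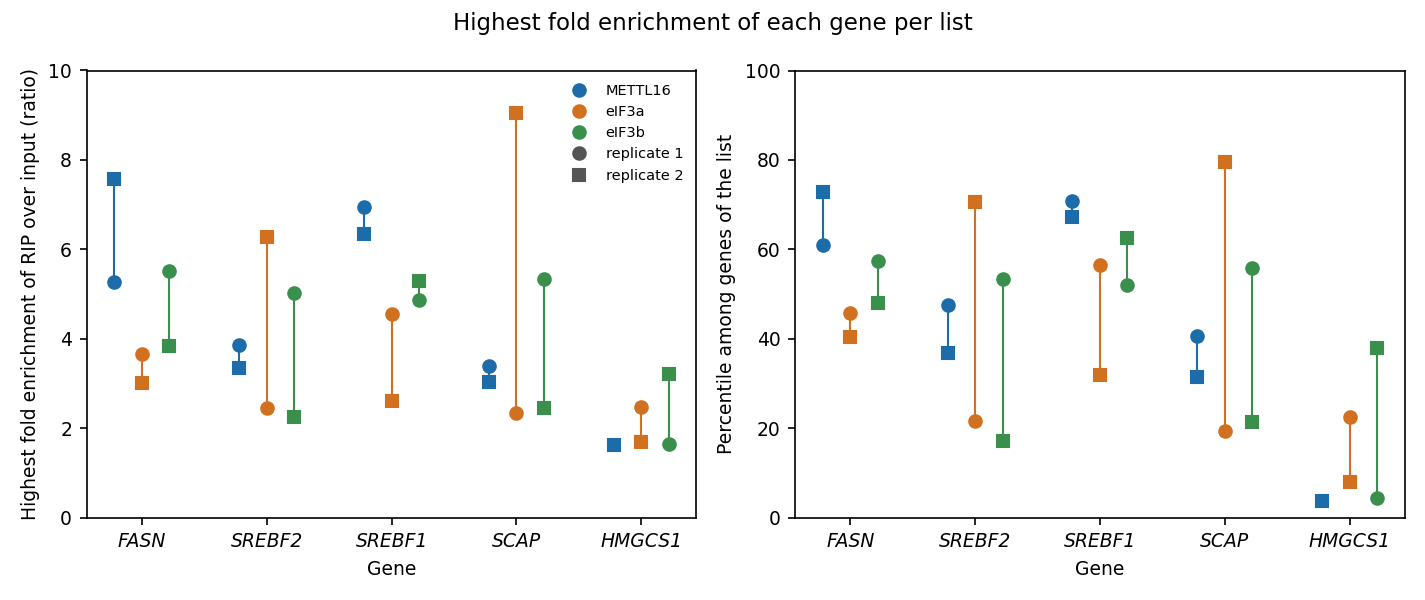
Highest fold enrichment of RIP over input of any peak on each gene (left, ratio) and its percentile among all genes of the same list (right), with circles for replicate 1, squares for replicate 2 and a line joining the replicates of a protein. SREBF1 and FASN sit higher for METTL16 than for eIF3a, and the eIF3a values of SCAP lie at 2.35 and 9.06.

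Most METTL16 peak bases on FASN and SREBF2 were also under eIF3a and eIF3b peaks, whereas few on SREBF1 and none on HMGCS1 were. SCAP differed between eIF3a and eIF3b. On FASN the shares under eIF3a and eIF3b peaks were 91.6% and 97.1%. There eIF3a peaks covered 80.5% to 88.7% of the mRNA and eIF3b peaks 88.3% to 89.7%. A high share on FASN was therefore set by this coverage for almost any METTL16 peak position, and says little about shared positions. Of METTL16 peak bases, 83.4% ± 4.31 were also under eIF3a peaks and 91.1% ± 4.88 under eIF3b peaks (SD over 4 pairs of lists), and of eIF3a peak bases 80.4% ± 7.70 were under eIF3b peaks. In the reverse direction, 71.3% of eIF3a and 73.0% of eIF3b peak bases were under METTL16 peaks. Of eIF3b peak bases, 75.2% were under eIF3a peaks. Over all genes these reverse shares were 30.9%, 37.8% and 47.2%. Replicates of METTL16 shared 84.1%, of eIF3a 72.3% and of eIF3b 81.3%, with all 7 genes pooled. Without FASN the replicates shared 55.2%, 44.5% and 64.9%, close to the 53.7%, 43.5% and 61.1% over all genes. Over all genes the shares were 47.2% for METTL16 under eIF3a, 67.6% for METTL16 under eIF3b and 54.7% for eIF3a under eIF3b. FASN held 50.4% to 75.0% of the peak bases of the 7 genes per list, and without FASN the 3 shares were 61.7%, 75.0% and 58.9%. In the reverse direction without FASN, 37.4% of eIF3a and 42.8% of eIF3b peak bases were under METTL16 peaks, and 54.5% of eIF3b peak bases were under eIF3a peaks. By gene, the METTL16 bases under eIF3a and eIF3b peaks were 78.6% and 83.1% on SREBF2, 46.7% and 84.2% on SCAP, 8.94% and 27.0% on SREBF1, and 0 and 0 on HMGCS1.

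Peak bases on these genes were mostly coding. Coding bases made up 84.9% and 89.1% with METTL16 (replicates 1 and 2), 81.9% and 80.0% with eIF3a, and 85.2% and 84.3% with eIF3b. Over all genes they made up 62.3% and 70.8%, 60.0% and 62.9%, and 65.1% and 61.6% in the same order. Without FASN, the shares were 73.7% and 85.2%, 68.9% and 69.4%, and 79.9% and 76.9%. The mRNAs themselves differ in this respect. Coding sequence made up 7533 of 8464 mRNA bases of FASN, 3837 of 4254 of SCAP and 3441 of 4901 of SREBF1. It made up 3423 of 5237 bases of SREBF2 and 1560 of 5350 of HMGCS1. A preference of the peaks for coding sequence beyond this make-up was not tested. On HMGCS1 the bases of eIF3a replicate 1 and both eIF3b lists were all in the 3′ UTR, and those of METTL16 replicate 2 and eIF3a replicate 2 were all coding.

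The 4 genes with peaks in all 6 lists had mRNA GC contents of 63.2% (SREBF1), 58.0% (SREBF2), 61.7% (SCAP) and 65.3% (FASN), at percentiles 77.9 to 96.1 of protein-coding genes. INSIG1 and ACACA, with none, had 44.8% and 48.9%. HMGCS1 did not follow this order, with 39.0% GC and peaks in 5 lists. Over all protein-coding genes the median showed no steady trend, with 48.8% for genes with no peak, 47.9%, 46.0%, 46.5%, 47.5% and 50.2% for genes in 1, 2, 3, 4 and 5 lists, and 53.4% for genes in all 6. The median mRNA length was 2247 bases for genes with no peak and 4480 for genes in all 6 lists. The part of base composition, length or transcript level in the presence of peaks was not tested.

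Sequence letters associated with METTL16 in its known substrates were searched on the transcript strand of the 7 canonical mRNAs. ACAGAGA is held by 33.7% of 20020 protein-coding mRNAs and the longer TACAGAGAA, which contains it, by 3.33%. Sites on SREBF2 and HMGCS1 are shown because they lay under a peak and the SREBF1 site because it holds the longer form, each with the motif in capitals. The SREBF2 site joins exons 15 and 16 at codon 912 (chr22:41898777-41900331 including the intron, plus strand) and lay under a peak in METTL16 replicate 1, eIF3a replicate 2 and both eIF3b lists. The HMGCS1 site in the 3′ UTR (chr5:43290455-43290461, minus strand) lay under a peak in eIF3a replicate 1 and eIF3b replicate 1. The SREBF1 site, the longer form, is in the 3′ UTR (chr17:17812099-17812107, minus strand) and lay under no peak.
SREBF2 ACAGAGA: cctggaagtgACAGAGAgccccctggt
HMGCS1 ACAGAGA: tgacctctgaACAGAGAaacactgcca
SREBF1 TACAGAGAA: agaagttttgTACAGAGAAttaaaaatga
HMGCS1 held 1 further ACAGAGA in its coding sequence and ACACA 3, none of them under a peak, and SCAP, INSIG1 and FASN held none. A match is a description of the letters and not of a binding site.

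Of 45 further genes of sterol and fatty acid synthesis and its control, 22 and 22 had a peak in METTL16 replicates 1 and 2, 24 and 13 in eIF3a, and 27 and 26 in eIF3b. In both replicates, 17 had a METTL16 peak (37.8%), 12 an eIF3a peak (26.7%) and 21 an eIF3b peak (46.7%), and 9 had a peak in all 6 lists (20%). Against genes named in any list (42.6%, 42.4%, 60% and 25.2%) these shares were lower, and against all protein-coding genes (22.9%, 22.8%, 32.2% and 13.6%) they were higher. Among those in all 6 lists, SPRING1, a factor needed for the processing of the precursors and listed under its older name C12orf49, had the largest highest fold, with a median over lists of 7.62 and a range of 6.46 to 13.5. MID1IP1, which promotes the polymerization of acetyl-CoA carboxylase, had a median of 3.63. The desaturase SCD had 2.34 and the acetyl-CoA synthetase ACSS2 2.05. ACLY, which makes cytosolic acetyl-CoA, and DHCR7, which acts late in cholesterol synthesis, both had 2.04, and MBTPS1, the protease that cuts the precursors, had 1.96. FDPS, MSMO1, LBR, MBTPS2, ME1, THRSP and MLXIPL were among the genes with a peak in no list. The median mRNA GC content was 53.8% for the 9 genes in all 6 lists, 48.1% for the 28 in 1 to 5 lists and 40.5% for the 8 in none. The ranges overlapped, at 46.5% to 58.1%, 34.4% to 65.5% and 37.4% to 63.3% in the same order.

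**Figure D4:**
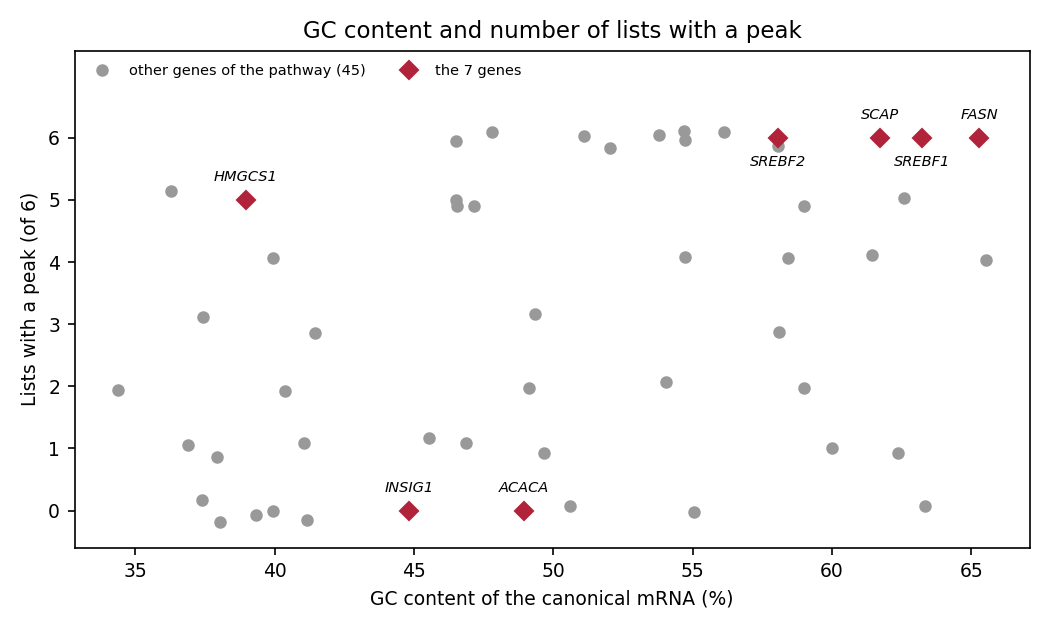
GC content of the canonical mRNA (horizontal axis, percent) against the number of lists with a peak (vertical axis, of 6) for the 7 genes (red diamonds) and 45 other genes of the pathway (grey circles, shifted slightly up or down so that they can be told apart). The 4 genes in all 6 lists lie between 58.0% and 65.3% GC, HMGCS1 at 39.0% is in 5 lists, and INSIG1 and ACACA are in none.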

How the data were processed

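The 6 RIP samples had 1 deposited peak list each, and the 6 inputs entered through the peak calling alone. Reads had been aligned by the authors with STAR against GRCh38, and exomePeak with its default settings had called the peaks. Versions, annotation and the pairing of RIP with input are not given in the sources used here. Each deposited peak carries exonic blocks, a p-value, log10 values of it and of its adjusted form (treated as a score), and a ratio, the fold of RIP over input. Read depth behind a peak is unknown, so no counting interval was given.

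Peaks were taken by gene name, and 10325 of 10830 names matched a current symbol of GENCODE release 44, 466 matched through an older one and 39 did not match. Overlaps were counted per exonic base on the same strand with Python 3.11.15, numpy 2.4.6 and pandas 2.3.3, in code tested on simulated data. A gene was called bound when it had a peak in both replicates. No gene was tested. Alternatives were a fold of at least 4, the 5000 most significant peaks of each list, exons of the canonical transcript, peak centres, a mean over genes, a peak lying on exons of its gene by at least 50% or 90%, same replicate numbers, and each replicate left out. The members and lists were chosen with earlier results of these data known. All 7 genes are named, and of the 45 pathway genes those in all 6 lists (at most the 8 with the largest median fold) and, by name, those in none. Some genes that this rule would name are not reported here. ACACB was chosen after its values were seen.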

Additional observations from a re-analysis of the deposited data

How the results depend on the processing

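Of 94 alternative values for 13 results, 60 stayed close to the reported value and 34 moved. Part of the 60 was fixed in advance. For the exon and coding shares, leaving out 1 replicate of 2 gives a value less than 1 SD from the reported mean, whatever the data. The same holds for the shared bases with 1 replicate left out or with a replicate block. For the gene counts, leaving out a replicate or taking either replicate could only keep or raise the value. With a fold of at least 4, genes bound fell to 2 for METTL16 (SREBF1 and FASN), 0 for eIF3a and 1 for eIF3b (SREBF1), and 0 had a peak in all 6 lists. The mean share of exon bases of the 7 genes under peaks, 16.8% ± 0.0045 for METTL16, 20.3% ± 2.02 for eIF3a and 22.0% ± 4.70 for eIF3b (SD, n = 2), became 9.86%, 4.09% and 9.64%, the shared bases became 0, 47.2% and 29.7% for METTL16 under eIF3a, METTL16 under eIF3b and eIF3a under eIF3b, and the coding share became 77.5% for eIF3a and 95.2% for eIF3b. With 5000 peaks per list, 3 genes (SREBF2, SCAP and FASN) were bound by METTL16, 3 by eIF3a and 3 by eIF3b, 3 had a peak in all 6 lists, the exon shares were 15.3%, 16.6% and 15.5%, METTL16 bases under eIF3b were 85.5% and the eIF3b coding share was 87.6%. On canonical exons the exon shares were 20.8%, 26.2% and 28.8%, with fewer bases in the denominator. As a mean over genes the shared bases were 50.6%, 65.7% and 61.1%. By peak centres the coding shares were 72.6%, 82.5% and 77.3%. Leaving out FASN, an alternative chosen after seeing the data, gave shared bases of 61.7%, 75.0% and 58.9% and coding shares of 79.4%, 69.1% and 78.4%. Leaving out 1 replicate gave 4 to 5 bound genes for METTL16, 5 to 5 for eIF3a and for eIF3b, and 4 to 5 genes in all lists. These counts could not have fallen, because a gene then needed a peak in fewer lists. The exon shares were 16.8% to 16.8%, 18.8% to 21.7% and 18.6% to 25.3%. Shared bases were 80.7% to 86.0%, 88.1% to 94.1% and 74.5% to 86.3%. Coding shares were 84.9% to 89.1%, 80.0% to 81.9% and 84.3% to 85.2%. Without METTL16 replicate 1, HMGCS1 was bound by METTL16 and in all lists. The METTL16 mean of 16.8% in each replicate (SD 0.0045) hid differences by gene that cancelled. From replicate 1 to replicate 2, the exon share rose on FASN (76.0% to 83.4%), SREBF1 (1.85% to 6.22%) and HMGCS1 (0 to 1.37%). It fell on SREBF2 (26.8% to 17.5%) and SCAP (12.9% to 9.11%). The small SD therefore does not show that METTL16 replicates matched on single genes.

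With a replicate block, pairing lists of the same replicate number, the shared bases were 81.9%, 91.7% and 81.6%. These pairs are part of the pairs behind the reported means and SDs. A value within 1 SD was therefore fixed in advance and shows nothing about a block. The depth behind the lists is unknown, and what a missing peak would need to be called cannot be stated.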
